A study of Mus musculus with 13 samples.

Results

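The 9 genes described here encode the machinery that loads peptides onto MHC class I molecules in the endoplasmic reticulum (ER) of mouse cells: Tap1, Tap2, Tapbp, Tapbpl, Erap1, B2m, Calr, Canx and Pdia3. They were taken by name from the annotation of an Affymetrix whole-genome mouse array. The rule did not use their levels, but earlier results of these data were known when the genes were chosen. Where a gene had several probe sets, the one with the highest mean over all arrays stood for it. They are 9 of the 9391 genes that were tested. The annotation gives them 21 of the 45101 probe sets, none of them shared with another gene, and 16 of the 21 passed the signal minimum of 50 in all arrays of at least 1 population. All 9 genes had at least 1 probe set that passed.

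Leukocytes were sorted from the spleens of untreated C57BL/6 mice, and 13 arrays were made of them. Dendritic cells (DCs) were plasmacytoid (pDCs) or conventional (cDCs), and cDCs were split into CD8α and CD11b cDCs, with 2 arrays per subset and 10 to 15 mice pooled in every array. Among lymphocytes, NK cells had 2 arrays (6 to 10 mice in each), B cells had 3 arrays (3 mice, 2 mice and 1 mouse, with replicates 2 and 3 described as follicular) and CD8 T cells had 2 arrays (1 mouse per array). The labels give an age of 6 to 8 weeks for CD8α cDC replicate 1 and for the CD8 T cells, and of 6 weeks for B cell replicates 2 and 3. In bulk samples of sorted cells, fewer cells with a transcript and less of it per cell cannot be told apart. A signal is a linear MAS5 intensity, scaled so that the trimmed mean of each array is 100, and signals of different genes were not compared because each probe set has its own brightness.

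The arrays carried the markers of their labels: all 6 measured pDC markers, all 5 CD8α cDC markers, all 5 NK markers, all 5 B cell markers and all 6 T cell markers were at or above 50 in every array of their own population. Some features of the libraries touch the results below. B cell replicate 1 gave a Jchain signal of 7866, against 92.1 and 332 in replicates 2 and 3. The 6 markers of antibody-secreting plasma cells, which are rich in ER proteins, summed to 9856 there, against 863 and 1290 in the others. Of these 6, Jchain, Xbp1, Derl3 and Tnfrsf17 were highest in replicate 1. Sdc1 was lowest there (82.8, against 182 and 241), and Prdm1 lay between (39.6, against 36.0 and 47.3). The 7 neutrophil markers summed to 1511 there, against 90.8 and 502. Replicate 1 was made from 100 ng of RNA, against 50 ng for replicates 2 and 3, which were also of another chip lot. The 3′ to 5′ ratio of the Gapdh control, which grows as RNA gets shorter, was 23.9 and 11.2 in the NK arrays and at most 6.30 in the others. DCs and lymphocytes shared neither a scan period nor a chip lot, so that a DC difference from lymphocytes and a difference between these batches cannot be told apart. Both CD8 T cell arrays, labelled female, had Xist signals below 1.05 and Y-linked Eif2s3y signals of 690 to 968, whereas B cell replicate 2, labelled male, had an Xist signal of 4272 and an Eif2s3y signal of 3.65. These 3 arrays thus went against the sex on their labels, and values without them are given where they change a call. All DC arrays had Xist signals of 1539 to 4503 and Eif2s3y signals of at most 8.51. Every lymphocyte array but B cell replicate 2 had Xist at most 1.05 and Eif2s3y at 346 to 968. Sex by these genes thus nearly followed the split of DCs and lymphocytes, and fully so without the 3 arrays. A DC difference from lymphocytes and a difference between the sexes therefore cannot be told apart.

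Peptides made by the proteasome in the cytosol are carried into the ER by TAP, a transporter made of Tap1 and Tap2. Tapasin (Tapbp) bridges TAP to class I heavy chains that have folded with β2-microglobulin (B2m), and holds them together with calreticulin (Calr) and the disulphide oxidoreductase ERp57 (Pdia3) until a fitting peptide is bound. Calnexin (Canx) takes up the heavy chain before that step, the aminopeptidase Erap1 trims peptides inside the ER, and Tapbpl, a relative of tapasin, edits peptides outside the complex. In the spleen, CD8α cDCs are known for presenting antigens taken up from other cells on class I to CD8 T cells.

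The regulatory sequences of the genes fall into different kinds, which is why a few of them are shown before the values. RefSeq promoters (GRCm38.p6, 250 bases before to 50 after the start) were given for 7 of the 9 genes, Tap2 and Tapbpl being the others, and were searched on both strands. The ER stress element, which is CCAAT and CCACG with any 9 bases between them, stood in the promoters of Calr and Canx, while 0.119% of 32851 promoters held it. A looser form, CCAAT with any 9 bases and CCAC, or CCAAT with any 10 bases and CACG, stood also in the Pdia3 promoter, while 0.511% of all promoters held it. These stretches run from 250 bases before the start to the start, with the element in capitals; the Calr match is on the opposite strand.
Calr, chr8:84846932-84847181, minus strand: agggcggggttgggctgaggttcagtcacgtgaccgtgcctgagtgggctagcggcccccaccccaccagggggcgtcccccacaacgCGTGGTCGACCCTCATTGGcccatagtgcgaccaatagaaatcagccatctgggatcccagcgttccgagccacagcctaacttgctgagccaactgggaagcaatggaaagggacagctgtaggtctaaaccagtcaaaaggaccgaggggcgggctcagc
Canx, chr11:50325674-50325923, minus strand: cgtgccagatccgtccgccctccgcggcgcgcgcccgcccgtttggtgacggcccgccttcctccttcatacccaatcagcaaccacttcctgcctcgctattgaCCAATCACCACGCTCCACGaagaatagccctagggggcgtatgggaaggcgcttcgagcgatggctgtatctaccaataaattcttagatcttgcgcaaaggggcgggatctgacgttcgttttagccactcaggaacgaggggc
Pdia3, chr2:121413652-121413901, plus strand: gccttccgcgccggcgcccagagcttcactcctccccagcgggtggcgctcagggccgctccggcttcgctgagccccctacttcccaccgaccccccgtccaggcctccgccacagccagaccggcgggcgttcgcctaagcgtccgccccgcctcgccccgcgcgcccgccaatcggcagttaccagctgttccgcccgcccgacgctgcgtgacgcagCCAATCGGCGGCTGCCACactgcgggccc

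The core of the interferon-stimulated response element, GAAA and GAAA with any 2 bases between, stood in the promoters of B2m and Erap1, while 3.44% of all promoters held it. For B2m the same 250 bases are shown, and for Erap1, where the match lies across the start and on the opposite strand, 60 bases around it. The Tap1 promoter held neither element; its capitals mark a CCAAT box, found in 37.4% of all promoters, and a GC box (GGGCGG, here on the opposite strand), found in 35.7%. Its window is shown because the start of Psmb9, an immunoproteasome subunit, lies on the other strand 226 bases away, so that both genes are read from 1 stretch of DNA.
B2m, chr2:122147437-122147686, plus strand: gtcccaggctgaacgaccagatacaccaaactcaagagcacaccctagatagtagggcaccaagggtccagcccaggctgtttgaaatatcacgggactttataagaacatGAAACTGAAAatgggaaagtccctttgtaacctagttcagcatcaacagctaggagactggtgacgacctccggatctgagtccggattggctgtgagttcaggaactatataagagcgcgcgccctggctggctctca
Erap1, chr13:74639813-74639872, plus strand: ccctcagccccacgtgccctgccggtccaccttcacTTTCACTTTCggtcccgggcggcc
Tap1, chr17:34187306-34187555, plus strand: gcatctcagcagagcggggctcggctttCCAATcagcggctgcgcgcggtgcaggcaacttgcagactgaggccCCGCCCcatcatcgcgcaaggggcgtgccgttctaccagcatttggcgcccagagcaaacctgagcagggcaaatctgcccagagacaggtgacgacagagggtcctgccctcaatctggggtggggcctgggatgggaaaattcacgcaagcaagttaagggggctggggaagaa

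A GAS site (TTC and GAA with any 3 bases between) was in none of the 7 promoters, against 8.3% of all promoters. A kappa B site was in those of B2m and Calr, against 8.46% of all. A match of letters is a description of the promoter and does not show that a factor binds there.

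**Figure D1:**
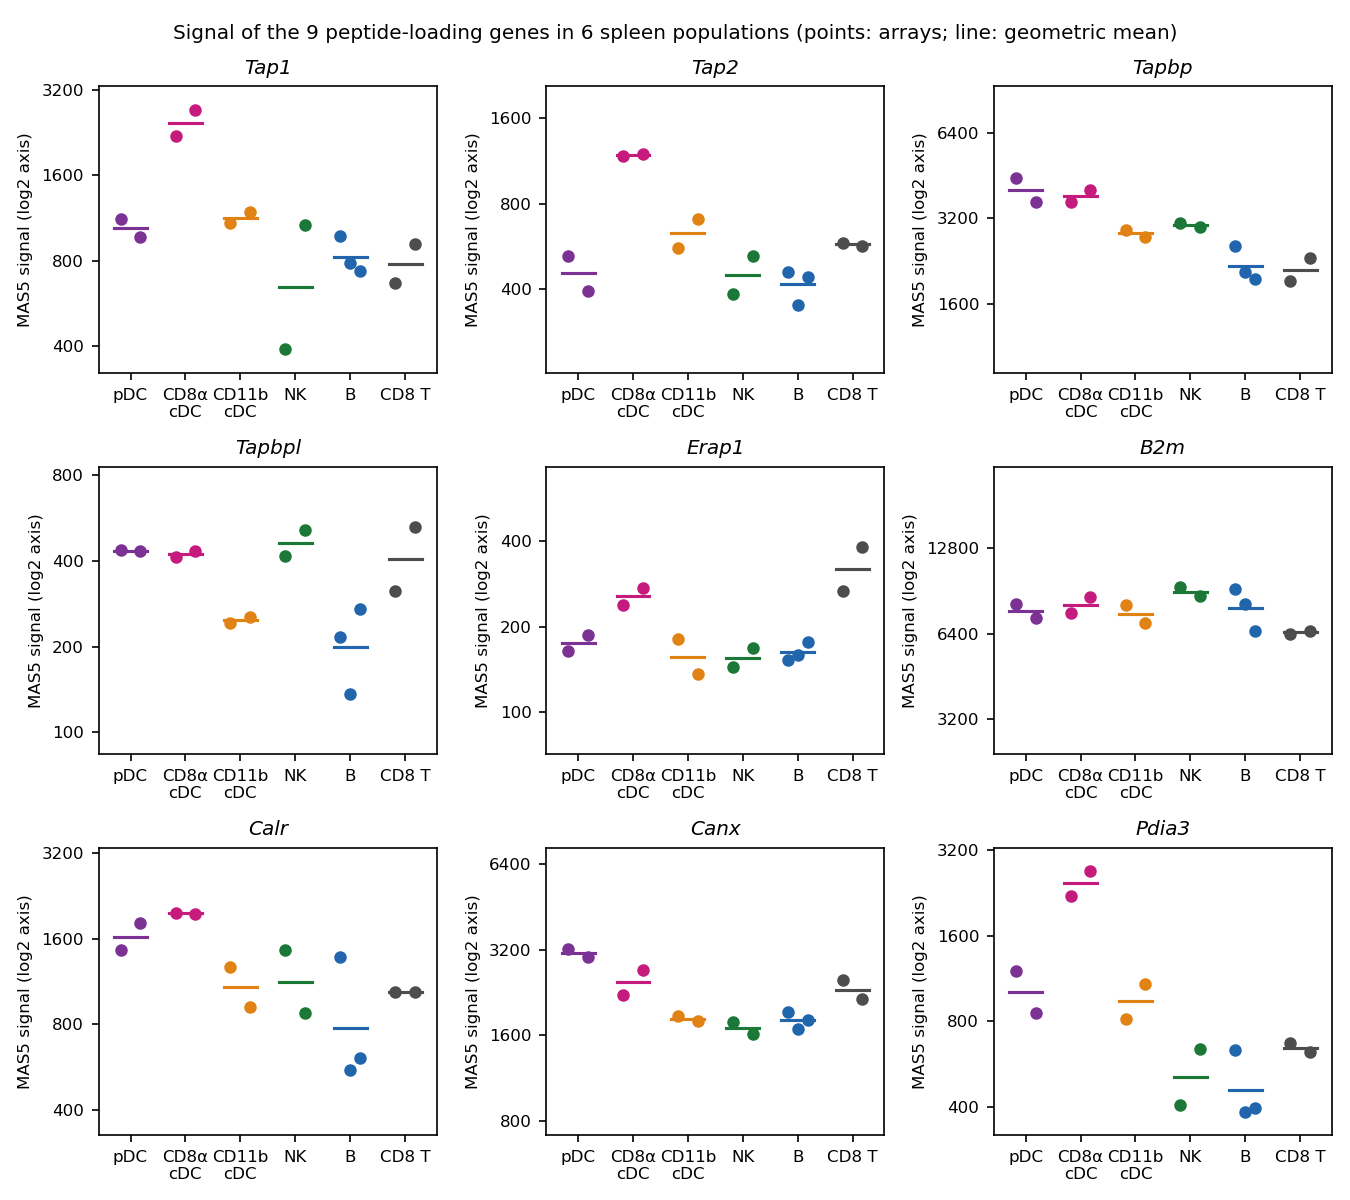
MAS5 signal (log2 axis) of the 9 peptide-loading genes in the 13 arrays. Each point is an array and each line the geometric mean of a population; every panel spans the same fold. CD8α cDCs stood highest for Tap1, Tap2 and Pdia3, while the B2m arrays lay between 6412 and 9340.4.

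Across the 6 populations, 7 of the 9 genes differed in limma's F test at an adjusted p below 0.05, where 82.9% of all genes did. The 2 others were B2m (adjusted p = 0.324) and Calr (adjusted p = 0.052). The ratio of the highest to the lowest population mean was 5.23 for Pdia3, 3.37 for Tap1, 2.84 for Tap2 and 1.39 for B2m. Among the 135 pairwise comparisons of the 9 genes, 45 passed after adjustment over all 15 pairs and all genes, where 41.4% of all such tests passed.

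Tap1, Tap2 and Pdia3 were higher in CD8α cDCs than in each of the 5 other populations. Of all genes, 4.44% met that rule. Tap1, a subunit of the TAP transporter, had signals of 2198 and 2712 in CD8α cDCs. It had 1120.2 and 967 in pDCs, and 1082 and 1185 in CD11b cDCs. Among lymphocytes it had 391 and 1066 in NK cells, 974, 788 and 735 in B cells, and 666 and 915 in CD8 T cells. Both CD8α arrays thus lay above all 11 others, which overlapped one another. In the pairwise tests the log2 difference of CD8α cDCs was 1.92 ± 0.38 (SE) from NK cells, 1.64 ± 0.38 from CD8 T cells, 1.56 ± 0.35 from B cells and 1.11 ± 0.38 from CD11b cDCs (adjusted p between 0.00208 and 0.0369), and pDCs stood lower than CD8α cDCs by 1.23 ± 0.38 (adjusted p = 0.0234). The NK arrays, which lie far apart for Tap1, are those with the high 3′ to 5′ ratios, whose part in the result was not tested.

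Tap2, the partner of Tap1 in the transporter, followed the same order at the top. Its signals were 1181 and 1196 in CD8α cDCs, with no other array above 707. They were 526 and 394 in pDCs, and 559 and 707 in CD11b cDCs. In lymphocytes they were 383 and 524 in NK cells, 461, 352 and 442 in B cells, and 583 and 567 in CD8 T cells. The next population down was CD11b cDCs, from which CD8α cDCs differed by 0.92 ± 0.22 on the log2 scale (adjusted p = 0.00723 among the pairs). Below that no difference between neighbours in the order of means passed, although both CD8 T cell arrays lay above both pDC arrays (pDCs minus CD8 T cells -0.34, adjusted p = 0.259). CD11b cDCs and B cells, further apart, differed (0.60 ± 0.20, adjusted p = 0.0373).

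Pdia3, the oxidoreductase that is held by tapasin, showed the widest range of the 9. It had 2220.1 and 2709 in CD8α cDCs, 1205 and 857 in pDCs, and 818 and 1083 in CD11b cDCs. The lymphocyte arrays gave 407 and 639.9 in NK cells, 634, 384 and 396 in B cells, and 670.3 and 625 in CD8 T cells. All 6 DC arrays lay above all 7 lymphocyte arrays, which held for no other of the 9 genes and for 5.77% of all genes, and the CD8α arrays lay above the rest of the DCs. CD8α cDCs exceeded B cells by 2.42 ± 0.28 and CD11b cDCs by 1.38 ± 0.31 (log2, adjusted p = 4.75e-05 and 0.00414), and pDCs stood lower than CD8α cDCs by 1.27 ± 0.31 (adjusted p = 0.00668). Over the 13 arrays the log2 signals of Tap1 and Pdia3 correlated at 0.90, those of Tap2 and Pdia3 at 0.89 and those of Tap1 and Tap2 at 0.85, while the 36 pairs of the 9 genes ran between -0.47 and 0.90 with a median of 0.43. The arrays share populations and batches, so that these values only describe likeness.

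The 2 tapasins had unlike orders. Tapbp was highest in pDCs, with 4441 and 3646, and in CD8α cDCs, with 3647 and 4025. CD11b cDCs had 2911 and 2763. NK cells had 3077 and 2994, B cells 2561, 2073 and 1963.5, and CD8 T cells 1927 and 2320.2. The pDC and CD8α arrays lay above all others, and those of NK cells and CD11b cDCs lay next, without a difference that passed (CD11b cDCs minus NK cells -0.10, adjusted p = 0.723). Against B cells the log2 difference was 0.88 ± 0.17 for pDCs and 0.81 ± 0.17 for CD8α cDCs (adjusted p = 0.00179 and 0.003).

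Tapbpl, the editor outside the complex, split the populations differently. Signals were 438 and 432 in pDCs, 414 and 433 in CD8α cDCs, 415 and 515 in NK cells and 314 and 527 in CD8 T cells. CD11b cDCs had 243 and 254 and B cells 216, 136 and 271, so that these 5 arrays lay below all others. In the pairs pDCs exceeded B cells by 1.12 ± 0.29 on the log2 scale (adjusted p = 0.00919), and CD11b cDCs were lower than NK cells by 0.90 ± 0.31 (adjusted p = 0.0408). The difference of pDCs, CD8α cDCs or CD8 T cells from CD11b cDCs did not pass.

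The 2 lectin chaperones, which hold the sugar of newly made heavy chains, had their highest levels in different DCs by the probe sets used. Calr was highest in CD8α cDCs, with 1971 and 1957, followed by pDCs with 1459.9 and 1814, and was 1271 and 923 in CD11b cDCs. NK cells had 1464 and 874, B cells 1379, 553 and 608, and CD8 T cells 1043 and 1037. The CD8α arrays lay above all others, and all the remaining populations overlapped with at least one neighbour. B cell replicate 1, the array with the Jchain signal of 7866, had the highest Calr signal of the B cell arrays. Its signal of Xbp1, a regulator of ER folding capacity and a plasma cell marker, was 1681, against 533 and 639. That array was also made from 100 ng of RNA, against 50 ng for the other B cell arrays, and on another chip lot. The part of plasma cells, RNA amount or chip lot in its signals was not tested. Without that array Calr was lower in B cells than in NK and CD8 T cells (log2 difference -0.90, adjusted p = 0.00614, against -0.49 and adjusted p = 0.244 with it) and higher in CD8α than in CD11b cDCs (0.86, adjusted p = 0.0277, against 0.173 with it).

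Canx was highest in pDCs, with 3230.3 and 3022, which lay above all other arrays. It had 2225 and 2727 in CD8α cDCs, and 1866.5 and 1802 in CD11b cDCs. It had 1785 and 1616 in NK cells, 1940.4, 1681 and 1811 in B cells, and 2511 and 2146 in CD8 T cells. Its second probe set had a higher mean in CD8α cDCs (192) than in pDCs (168). The dimmest was higher in pDCs (143) than in CD8α cDCs (125). The log2 difference of pDCs from CD11b cDCs was 0.77 ± 0.17 and from NK cells 0.88 ± 0.17 (adjusted p = 0.00392 and 0.00172). That from CD8α cDCs, 0.34, did not pass (adjusted p = 0.129), nor did CD8 T cells, whose signals overlapped those of CD8α cDCs, differ from them (log2 difference of CD8α cDCs from CD8 T cells 0.09, adjusted p = 0.735).

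B2m, the light chain of all class I molecules, varied least. Its signals were 8163 and 7297 in pDCs, 7577 and 8642 in CD8α cDCs, and 8113 and 6986 in CD11b cDCs. They were 9340.4 and 8714 in NK cells, 9209.6, 8135 and 6563 in B cells, and 6412 and 6553 in CD8 T cells. The CD8 T arrays lay below all others and NK replicate 1 above all others, and the arrays between them overlapped. None of the 15 pairs passed for B2m, and the 95% interval of the log2 difference of DCs from lymphocytes ran from -0.23 to 0.24.

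Erap1, the trimming peptidase, was highest in CD8 T cells, with 267 and 382, and next in CD8α cDCs, with 238 and 274. The other arrays lay at 164 and 186 in pDCs, 181 and 136 in CD11b cDCs, or among lymphocytes at 144 and 168 in NK cells and 153, 159 and 177 in B cells. Those 9 arrays overlapped one another and lay below both higher populations. CD8 T cells exceeded the 4 lower populations in the pairs: pDCs were lower by 0.87 ± 0.22, CD11b cDCs by 1.03 ± 0.22, NK cells by 1.04 ± 0.22 and B cells by 0.98 ± 0.20 (log2, adjusted p between 0.00248 and 0.00815). CD8α cDCs and CD8 T cells, as neighbours, did not pass (CD8α cDCs minus CD8 T cells -0.32, adjusted p = 0.266).

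The comparison of DCs with lymphocytes set the mean of 3 populations against that of 3 others. A gene can pass it through a single subset. Tap1 in pDCs or CD11b cDCs differed from no lymphocyte population in the pairs (adjusted p between 0.112 and 0.484). Tap2 in pDCs (526 and 394) lay below CD8 T cells (583 and 567). Of the 9 genes, 6 were higher in DCs (31.4% of all genes were) and 0 were lower (32.2% of all genes were). The largest difference was that of Pdia3, 1.32 ± 0.17 on the log2 scale (adjusted p = 6.04e-05), followed by Tap1 with 0.93 ± 0.21 (adjusted p = 0.00296) and Calr with 0.64 ± 0.22 (adjusted p = 0.0273). Tap2 gave 0.56 ± 0.13, Tapbp 0.55 ± 0.10 and Canx 0.33 ± 0.09, all past the threshold, while Tapbpl (0.10 ± 0.18), Erap1 (-0.07 ± 0.12) and B2m (0.01 ± 0.11) were not. The median of the 9 genes was 0.55, against -0.02 for all genes tested. When the fit allowed for the naming scheme of the samples, which came in 2 kinds and differed within a population only between B cell replicate 1 and the other B cell arrays, only Pdia3 still passed (0.93, adjusted p = 0.00585), and Calr was at -0.05. Calr also lost its call without the 3 arrays that went against their sex labels (0.57, adjusted p = 0.0843) and without any one of 7 single arrays. Canx lost its call also under quantile normalization (0.20, adjusted p = 0.0754), which left 4 of the 9 genes called, and without both NK arrays (0.24, adjusted p = 0.0715), and Tapbp with its second probe set (0.49, adjusted p = 0.14).

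The comparison of pDCs with cDCs moved 2 of the 9 genes in opposite directions. Canx was higher in pDCs by 0.56 ± 0.15 (adjusted p = 0.0117; 17.7% of all genes were higher), and Tap2 was lower by 0.93 ± 0.19 (adjusted p = 0.00319; 19.1% of all genes were lower). Tap1 at -0.68 ± 0.33 and Pdia3 at -0.58 ± 0.26 did not pass (adjusted p = 0.134 and 0.112), the cDC mean here joining CD8α cDCs with the lower CD11b cDCs. Each of the 2 calls was lost without 1 pDC array: Canx without replicate 1 (0.51, adjusted p = 0.0627) and Tap2 without replicate 2 (-0.72, adjusted p = 0.0517). Canx lost its call also with its second probe set (0.33, adjusted p = 0.37). Without both NK arrays Tap1 passed as lower in pDCs (adjusted p = 0.0189).

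**Figure D2:**
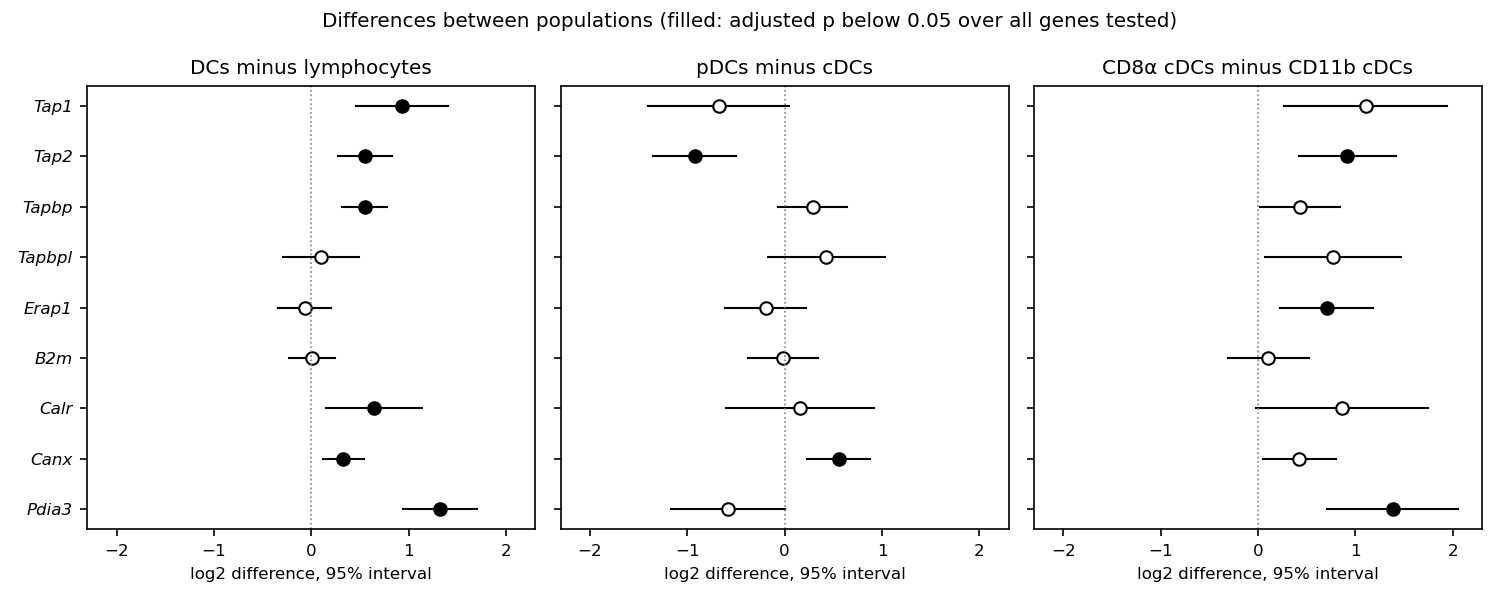
Log2 difference of each gene in 3 comparisons, with its 95% interval from limma; filled points passed an adjusted p of 0.05 over 9391 genes. All 9 points lie above 0 for CD8α minus CD11b cDCs, from 0.10 for B2m to 1.38 for Pdia3, and 3 of them passed.

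Between the cDC subsets, 3 of the 9 genes were higher in CD8α cDCs (8.96% of all genes were) and 0 were lower (10.5% of all genes were). They were Pdia3 with a log2 difference of 1.38 ± 0.31 (adjusted p = 0.00853), Tap2 with 0.92 ± 0.22 (adjusted p = 0.0146) and Erap1 with 0.71 ± 0.22 (adjusted p = 0.0436). Tap1, at 1.11 ± 0.38, missed the threshold here (adjusted p = 0.0661), although it passed in the joint adjustment over all pairs given above, and it passed without both NK arrays (adjusted p = 0.00571). Tapbpl, at 0.77 ± 0.31, did not pass (adjusted p = 0.121) but did without the 3 arrays that went against their sex labels (adjusted p = 0.0224). For 8 of the 9 genes, all but B2m, both CD8α arrays lay above both CD11b arrays, where 31.7% of all genes did. The median of the 9 was 0.77, against 0 for all genes. Markers of macrophages and monocytes moved with the subsets: 4 of 9 were at or above 50 in both CD8α arrays and their sum was 3131 to 3546, against 9 of 9 and 9254 to 10845 in CD11b cDCs, and their part in the result was not tested. CD11b cDC replicate 1 was scanned on another day than the other DC arrays, and against replicate 2 alone, within 1 day, the differences were 1.18 for Pdia3, 1.04 for Tap1, 0.75 for Tap2 and 0.91 for Erap1. The calls depended on single arrays: 1 of the 9 genes passed without CD8α cDC replicate 1, 0 without CD8α cDC replicate 2 and 1 without CD11b cDC replicate 1. Tap2 lost its call in each of these (adjusted p between 0.0687 and 0.121), Erap1 lost it under 16 of 26 alternatives, its other probe set among them, and Pdia3 lost its call without CD8α cDC replicate 2 (1.24, adjusted p = 0.0794) or CD11b cDC replicate 1 (1.18, adjusted p = 0.0896).

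The other probe sets of the same genes read other parts of the transcripts, and 5 genes had more than 1 that passed the signal minimum. For Calr the 2 others gave 1.10 and 1.21 between CD8α and CD11b cDCs, and for Canx 1.06 and 0.60, beside 0.86 and 0.43 for the probe sets used; as second highest probe sets, the first of each passed (adjusted p = 0.0383 and 0.0365). The 2 other Calr probe sets carry a suffix that marks possible binding of related transcripts. For Erap1 the dimmer probe set went the other way, at -0.22 (adjusted p = 0.777), with signals of 35.8 and 84.8 in CD8α cDCs and 71.0 and 58.1 in CD11b cDCs. The higher Erap1 level in CD8α cDCs thus rests on 1 probe set. The 3 other Tap1 probe sets were below the floor of 20 on every array and carried no information.

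**Figure D3:**
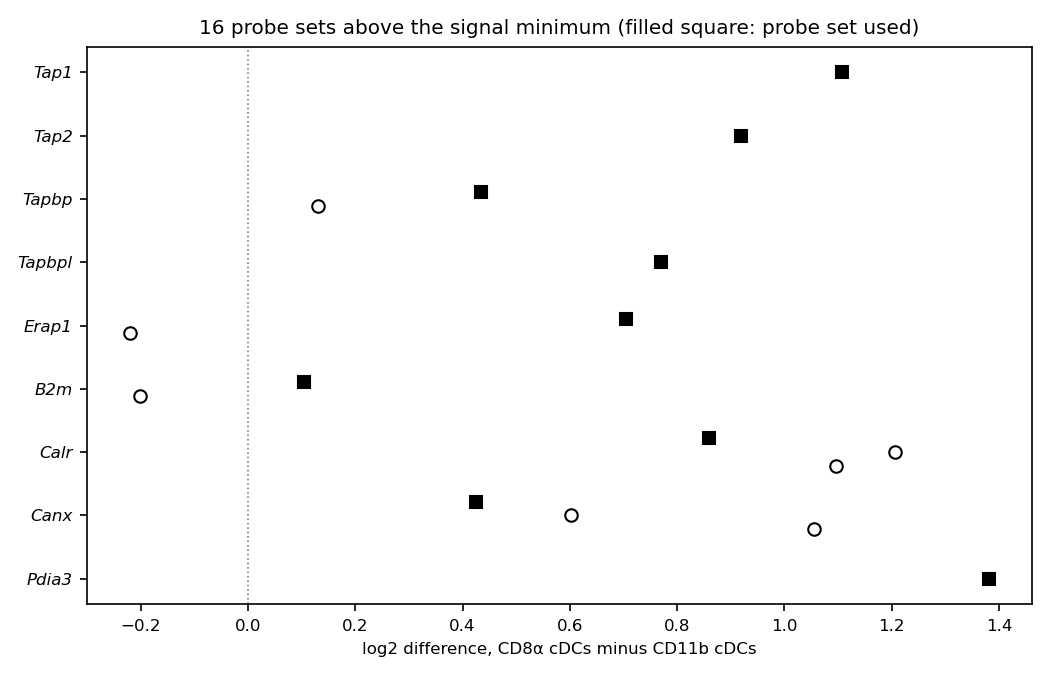
Log2 difference of CD8α minus CD11b cDCs for the 16 probe sets above the signal minimum; filled squares are the probe sets used and open circles the others of the same gene. Erap1 and B2m are the genes with a probe set on each side of 0.

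Among lymphocytes, B cells were set against the mean of NK and CD8 T cells. Tapbpl was lower in B cells by 1.12 ± 0.24 (adjusted p = 0.00379), the 1 gene of 9 that was lower (20.1% of all genes were), and 0 of 9 were higher (17.6% of all genes were). It kept this call under all alternatives that gave a value for it, between -1.34 and -0.84. Erap1 lay just outside the threshold, at -0.46 ± 0.17 (adjusted p = 0.0508). The pair of populations with the most of the 9 genes called, given here for that reason, was CD8α cDCs and B cells. CD8α cDCs exceeded B cells for 8 of the 9 genes, all but B2m, where 25% of all genes were higher in CD8α cDCs than in B cells.

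Between NK and CD8 T cells, 1 gene was higher in NK cells (21.5% of all genes were) and 1 lower (16.6% of all genes were). Erap1 was lower in NK cells by 1.04 ± 0.22 (adjusted p = 0.00369), and its other probe set gave -1.24 (adjusted p = 0.0253). Tapbp was higher by 0.52 ± 0.19 (adjusted p = 0.0475), but its dimmer probe set gave -1.12 (adjusted p = 0.0964), and this call was lost without any one of 9 single arrays. Under quantile or invariant rank normalization 0 of the 9 genes were higher in NK cells and 2 were lower: Tapbp did not pass (adjusted p = 0.115 and 0.153) and Canx, at -0.45 in the main analysis (adjusted p = 0.0564), passed as lower (-0.62 and -0.55, adjusted p = 0.0105 and 0.0163), as it did with its second probe set (-1.33, adjusted p = 0.00694). Erap1 lost its call when the naming scheme was allowed for (-0.91, adjusted p = 0.0635). The NK arrays stood apart in the 3′ to 5′ ratio of the Gapdh control, and the 2 populations shared no scan day, so that neither can be told apart from the difference between the cells.

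The genes around the peptide-loading complex were counted by lists of the pathway. ER oxidoreductases and chaperones, which fold proteins in general, stood higher in CD8α than in CD11b cDCs for 10 of 17 genes and lower for 0, with a median log2 difference of 1.17. Of all genes, 8.96% were higher and 10.5% lower in this comparison, shares against which the counts of the lists below are to be read. Pdia5, another member of the protein disulphide isomerase family, had signals of 2360.0 and 2714 in CD8α cDCs, against 60.7 and 44.2 in CD11b cDCs, so that the log2 difference was 5.61 ± 0.23 (adjusted p = 3.39e-08). Creld2 (1.88 ± 0.25), Manf (1.43 ± 0.41) and Hyou1 (1.41 ± 0.29), products of the ER stress response, also passed. The 7 regulators of the unfolded protein response gave 0 higher and 0 lower between these subsets, with a median of -0.01, a count close to those shares.

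On the cytosolic side, 2 of 4 measured genes of the immunoproteasome and its activator were higher in CD8α cDCs and 0 lower. Psmb9, which shares its promoter region with Tap1, had 5942 and 6668 in CD8α cDCs, against 3322 and 3776 in CD11b cDCs (0.83 ± 0.23, adjusted p = 0.0291). Over the 13 arrays its log2 signal correlated with that of Tap1 at 0.844, while Psmb8 of the same list did so at 0.877. Whether the shared region plays a part was not tested. Psme1, a subunit of the proteasome activator, had 3536 and 4775 in CD8α cDCs, against 2202.5 and 2557 in CD11b cDCs (0.79 ± 0.22, adjusted p = 0.027). The calnexin cycle and N-glycan processing gave 2 of 10 higher and 0 lower, Man1b1 with 1.53 ± 0.33 and Mogs with 0.79 ± 0.24, both trimmers of sugar chains. Man1b1 had 64.0 and 65.6 in CD8α cDCs, against 25.3 and 14.2 in CD11b cDCs, so that its difference depends on the floor of 20. It met the signal minimum only through CD8α cDCs, and its place in the count is therefore not independent of its level there.

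The class I heavy chains and class I-like chains gave 0 of 8 higher and 0 lower between CD8α and CD11b cDCs, with a median of 0.06. Cd1d1 had 2597 and 2362 in CD8α cDCs, against 900 and 1111 in CD11b cDCs, and Fcgrt 1492 and 1437, against 600 and 652. Neither passed. H2-M3 went the other way, with 1731 and 1592, against 1846 and 1894, and did not pass. H2-K1, a classical heavy chain, had 8020 and 8371 in CD8α cDCs, against 8420.5 and 8507 in CD11b cDCs (-0.05 ± 0.15, adjusted p = 0.911). H2-D1, the other classical heavy chain measured, had 5536 and 6219.8 in CD8α cDCs, against 5058 and 5559.6 in CD11b cDCs (0.15 ± 0.23, adjusted p = 0.755). Between NK and CD8 T cells both passed, H2-K1 with 0.95 ± 0.15 and H2-D1 with 0.68 ± 0.23 (adjusted p = 0.000765 and 0.0398), higher in NK cells.

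Interferon-stimulated genes, a group that can be induced together with Tap1, were lower in CD8α than in CD11b cDCs for 6 of 12 and higher for 0, with a median of -2.11, where 10.5% of all genes were lower. Rtp4 had at most 13.1 in CD8α cDCs, against 977 and 1001 in CD11b cDCs. Ifit3 had 22.3 and 27.7 in CD8α cDCs, against 574 and 670.4 in CD11b cDCs (-4.64 ± 0.97, adjusted p = 0.0061). Oas2 had 14.2 and 16.5 in CD8α cDCs, against 390.4 and 379.8 in CD11b cDCs. Since the CD8α signals of Rtp4 and Oas2 are below the floor of 20, their log2 differences of -5.63 ± 0.62 and -4.27 ± 0.31 (adjusted p = 6.65e-05 and 2.62e-06) depend on that floor. The other 6 genes of the list did not pass.

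**Figure D4:**
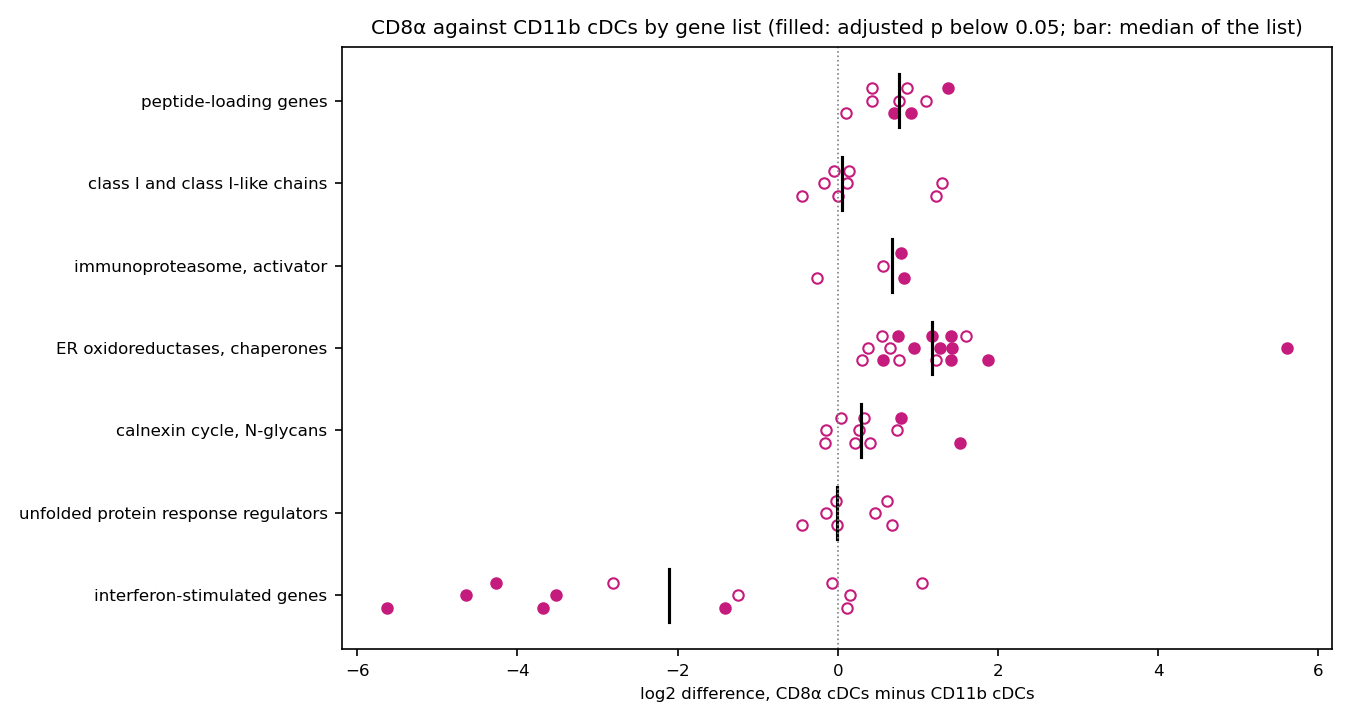
Log2 difference of CD8α minus CD11b cDCs for single genes, by list; filled points passed an adjusted p of 0.05 and bars mark the median of a list. The medians were 0.77 for the 9 peptide-loading genes, 1.17 for ER oxidoreductases and chaperones and -2.11 for interferon-stimulated genes.

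DCs as a whole exceeded lymphocytes for 12 of 17 ER oxidoreductases and chaperones, with 0 lower and a median of 0.97, and for 3 of 4 genes of the immunoproteasome and its activator, with a median of 0.81, where 31.4% of all genes were higher and 32.2% lower. Between pDCs and cDCs the same ER list gave 2 higher and 3 lower, while the calnexin cycle and N-glycan list, the list of Canx by function, gave 4 of 10 higher in pDCs and 0 lower, where 17.7% of all genes were higher and 19.1% lower. Those 4 were Edem2 (1.68 ± 0.25), Edem3 (1.36 ± 0.20), Lman1 (0.98 ± 0.17) and Uggt1 (0.56 ± 0.18). Xbp1 was also higher in pDCs than in cDCs (1.22 ± 0.38, adjusted p = 0.0271), with 3165 and 3244 in pDCs, against 1752 and 1735 in CD8α cDCs and 1156 and 1028 in CD11b cDCs.

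Among all genes tested, those whose log2 signal was most like that of a peptide-loading gene over the 13 arrays were named by Pearson's correlation alone. For Tap1 they were the proteasome subunits Psmc3 and Psmb7, at 0.95 and 0.93, and Vdac2, at 0.94. For Pdia3 they were Mtln (0.98), Psmb9 (0.97) and Gusb (0.96), for Tapbp Trappc2l (0.96), Gmppa (0.95) and P4hb (0.95), and for Canx Adk (0.96), AI662270 (0.94) and Stt3a (0.93). The highest correlations for B2m were lower, at 0.83 for Alad, 0.82 for Zcrb1 and 0.81 for Eif5a.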

How the data were processed

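RNA of 13 sorted mouse spleen samples was measured on Affymetrix whole-genome arrays after amplification in 2 rounds. The deposited intensity values are linear MAS5 signals that the authors scaled to a target of 100, with no floor. The array records gave scan day, chip lot and RNA amount. The annotation gave 1 gene for 34958 of 45101 probe sets, several for 932 and none for 9211. Probe sets that reached 50 in every array of any population were kept, and 1 per gene (highest mean) was floored at 20, log2 transformed and fitted in limma 3.58.1 (R 4.3.3) with 6 population means (7 residual degrees of freedom). Tests were two-sided, with p-values adjusted by Benjamini-Hochberg over 9391 genes, or over 140865 tests for the pairs, at 0.05. The precision is limited by 2 or 3 arrays per population. The model was checked on simulated data.

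The members and gene lists were chosen with earlier results of these data known. From each list at most 4 called genes were named, those with the largest differences. The class I and class I-like chains, Xbp1 in single arrays, Jchain, the other single plasma cell markers and the genes of the sex check were named after their values were seen. Alternatives changed the normalization, floor, filter, variance model, probe set, replicate block, scan day, set of sample names and each array. Replicates of DCs and NK cells came from separate sorts, per the methods. B and CD8 T cells came from other experiments there, without a statement of which replicates shared a sort. Every p-value rests on a single estimate of spread per gene, pooled over the replicates of all populations, and reflects these arrays only.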

Additional observations from a re-analysis of the deposited data

How the results depend on the processing

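Over 26 alternatives, the 14 differences of single genes past the threshold kept direction and call in 291 of 351 recalculations; 56 lost the call. Of the 31 differences that had not passed, 41 of 763 recalculations passed in the same direction, and 37 changed sign without passing. A further 5 recalculations, over both groups of differences together, counted as reversed. Among them was Calr between NK and CD8 T cells, which had not passed and then passed with the opposite sign. The sets of arrays left out together were chosen after seeing the data.

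In DCs against lymphocytes, 1 of the 9 genes (6 in the main analysis) passed with a term for the set of sample names, where Calr reversed to -0.052. This term also turned Calr between NK and CD8 T cells to -1.13. It rests on B cell replicate 1 against the other B cell arrays. That array carried the high Jchain and Xbp1 signals and differed from the other B cell arrays in RNA amount and chip lot. Between pDCs and cDCs, 0 of the 5 genes with a second probe set passed with it, where 1 had with the first, and 2 passed between the cDC subsets, where 1 had. With it Erap1 between the cDC subsets reversed to -0.22 and Tapbp between NK and CD8 T cells to -1.12, and the mean of all probe sets took Tapbp there to -0.30. For B cells against NK and CD8 T cells, 2 genes in place of 1 passed under quantile normalization, invariant ranks, a floor of 50, scan day as a block and the term for sample names. Between NK and CD8 T cells, 1 gene in place of 2 passed without a floor, with the replicate block (Erap1 in both) and with the term for sample names (Calr, both Erap1 and Tapbp being lost), and 4 passed with a floor of 50 and with the trend and robust variance. The cause was not tested.

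With 1 array left out at a time, between 5 and 6 of the 9 genes passed for DCs against lymphocytes, 1 to 3 for pDCs against cDCs, 0 to 4 between the cDC subsets, 1 to 2 for B cells against NK and CD8 T cells, 1 to 4 between NK and CD8 T cells and 30 to 60 of the 135 pairs. The arrays whose loss moved a count for the cDC subsets by over 1.5 times were both CD8α cDC arrays and CD11b cDC replicate 1. The count for NK and CD8 T cells was 4 without B cell replicate 1 and 1 without CD8α cDC replicate 2, either CD11b cDC array, NK replicate 1, B cell replicate 2 or either CD8 T cell array. Of all genes, 1117 (without CD8α cDC replicate 2) to 2413 passed between the cDC subsets and 2388 to 4256 between NK and CD8 T cells.

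The labels give the populations the same replicate numbers, but deviations of same-numbered arrays correlated between -0.20 and 0.18, and the arrays were therefore treated as unpaired. With the replicate block 2 genes in place of 3 passed between the cDC subsets, and Erap1 there (adjusted p = 0.0612) and Tapbp between NK and CD8 T cells (adjusted p = 0.0662) were the calls lost. Signals at the floor limit folds of dim genes.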
